A study of Mus musculus with 10 samples.

Results

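The genes described here carry the FGF4 signal of mouse ES cells to ERK and back. They are the ligand gene Fgf4, the receptor genes Fgfr1 and Fgfr2, the feedback genes Spry2, Spry4, Dusp4 and Dusp6, and the transcription factor genes Etv4, Etv5 and Egr1. They were chosen by gene symbol, and all 10 symbols were found among the 22713 gene IDs of the mRNA tables. Each member had reads in all 8 mRNA libraries, and all 10 passed the filter on low values in both tables. The design asks what loss of Pontin, loss of Oct4 and knockdown of the lincRNA linc1253 change in ES cells, and the members were followed through each.

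WT is an untreated library of Pontinf/f; CreER ES cells, in which an exon of both Pontin alleles is flanked by loxP sites and Cre is active only with 4-hydroxytamoxifen (OHT). OHT 3D and OHT 4D are the same line at 3 and 4 days after OHT. No library had OHT or active Cre with Pontin intact. The parts of Pontin loss, OHT, Cre activity and days of treatment therefore cannot be told apart. Tc 2D is a library of ZHBTc4 ES cells at 2 days after tetracycline (Tc), which shuts off the only active source of Oct4 in that line. The shRNA control (2 libraries) and shRNA linc1253 (2 libraries) groups are ZHBTc4 cells without Tc, at 4 days after infection with pLKO lentivirus and with selection by puromycin. Pontin and GFP ChIP-seq were done on untreated ZHBTc4 cells, 1 library each. WT, OHT 3D, OHT 4D and Tc 2D were 1 library each, so their differences have no replicate check, and WT is of another line than Tc 2D. The shRNA controls share the line of Tc 2D but differ from it in infection, selection, sequencer model and normalisation. The parts of these and of Tc cannot be told apart. Whether a given library was grown on feeder fibroblasts is not given in the sources used here.

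FGF4 is secreted by ES cells themselves and binds FGF receptors with heparan sulphate as a cofactor. The receptors act through the adaptor FRS2 and the RAS, RAF, MEK and ERK proteins, and ERK activity prepares ES cells to leave the naive state and take up a fate. ERK also induces its own brakes: Sprouty proteins act upstream on the pathway, while DUSP phosphatases remove the activating phosphates from ERK. ETV4, ETV5 and EGR1 are transcription factors whose genes respond to this pathway. Fgf4 is a textbook target of Oct4 with Sox2, through an enhancer in the 3′ UTR of the gene itself.

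Letters of a Sox2 site next to an Oct4 site were looked for in the mouse genome build of the files, NCBIM37, as the letters TTGT followed by ATGCNAAT with at most 6 bases between, on both strands. There was 1 match in the Fgf4 gene with 5 kb either side. It lies in the 3′ UTR and starts 1458 bases after the last coding base. The 24 bases printed, with lower-case flanks around the match in capitals, are chr7:152050297-152050320 on the + strand, and the sequence is shown because Fgf4 gave the largest difference of any member.
Fgf4 3′ UTR match: ctctTTGTTTGGATGCTAATggga

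Of genome windows as long as the one searched, 7.94% held such a match, so it is a description of the sequence and not a measured site. The promoters of Fgf4, Dusp6 and Etv5 are printed because a ligand, a feedback gene and a transcription factor gene that were lower at Tc 2D are thereby set side by side, and that of Spry2 because it had the highest Pontin ratio of the members over the window from 2.5 kb before to 500 bases after the start, though not within 1 kb of it. Each is the 250 bases before a start site that RefSeq gives (for Etv5 the more upstream of 2), matched to NCBIM37 and printed 5′ to 3′ on the strand of the gene, with CCAAT on either strand in capitals. They lie at chr7:152047041-152047290 (+) for Fgf4, chr10:98725615-98725864 (+) for Dusp6, chr16:22439644-22439893 (-) for Etv5 and chr14:106296037-106296286 (-) for Spry2.
Fgf4 promoter: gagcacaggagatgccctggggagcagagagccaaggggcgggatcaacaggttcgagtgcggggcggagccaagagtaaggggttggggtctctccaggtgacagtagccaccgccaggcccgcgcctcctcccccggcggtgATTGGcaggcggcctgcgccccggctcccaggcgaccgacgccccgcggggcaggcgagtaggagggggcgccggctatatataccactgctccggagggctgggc
Dusp6 promoter: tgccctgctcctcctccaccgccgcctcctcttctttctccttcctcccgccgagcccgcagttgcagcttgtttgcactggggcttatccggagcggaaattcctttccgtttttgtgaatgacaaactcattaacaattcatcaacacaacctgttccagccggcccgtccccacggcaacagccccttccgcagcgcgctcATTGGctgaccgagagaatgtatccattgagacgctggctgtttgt
Etv5 promoter: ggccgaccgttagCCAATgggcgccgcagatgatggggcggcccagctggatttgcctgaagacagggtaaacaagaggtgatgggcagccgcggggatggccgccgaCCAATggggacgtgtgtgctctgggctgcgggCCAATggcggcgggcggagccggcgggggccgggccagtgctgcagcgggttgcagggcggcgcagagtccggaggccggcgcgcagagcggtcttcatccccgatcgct
Spry2 promoter: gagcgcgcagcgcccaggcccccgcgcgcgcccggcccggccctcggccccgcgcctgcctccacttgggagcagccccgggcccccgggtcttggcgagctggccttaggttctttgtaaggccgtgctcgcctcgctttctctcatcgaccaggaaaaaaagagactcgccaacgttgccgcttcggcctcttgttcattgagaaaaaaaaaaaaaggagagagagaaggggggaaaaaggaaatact

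CCAAT, the letters bound by NF-Y, occurred on either strand in 37.9% of all 22367 protein-coding promoters, counted from 250 bases before to 50 bases after the start. It was present in Fgf4 (1 match), Dusp6 (1 match), Etv4 (2 matches), Etv5 (3 matches) and Egr1 (1 match). CCGGAA, a core of ETS factor sites, was present in 17.5% of promoters and, of the members, in Spry2 and Spry4. The CArG box, the site of serum response factor, was present in 1.47% of promoters. Of the members, Egr1 held it, with 4 matches over both strands. This pattern reads the same on both strands, so each site was counted once on each. The letters are a description of these windows and do not show that a factor binds there.

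The reads on genes ranged from 17187595 to 18120429 in the table of WT, OHT 3D, OHT 4D and Tc 2D, and from 21245831 to 37951742 in the shRNA table. Pontin mRNA, listed as Ruvbl1, had a normalised read count in CPM (reads on a gene scaled by TMM-adjusted library size) of 33.3 after 3 days and 50.9 after 4 days of OHT, against 198 in WT. Oct4 mRNA, listed as Pou5f1, measured 21.1 CPM at Tc 2D against 301 CPM in WT, and 642 and 582 CPM in the ZHBTc4 controls. Ruvbl1 was also lower at Tc 2D, at 85.0 CPM against 166 and 186 CPM in the ZHBTc4 controls, and its part in the Tc 2D values was not tested. The study itself reported no significant change of Pontin after Oct4 depletion, in protein by immunoblot or in mRNA by quantitative RT-PCR. linc1253 itself was not analysed here. Of fibroblast markers above the filter, 23 of 26 were above WT by a log2-fold-change of more than 0.58, about 1.5-fold, at OHT 3D and 24 of 26 at OHT 4D. Their CPM summed to 354 in WT and came to 971 at OHT 3D and to 1176 at OHT 4D. It was 326 at Tc 2D and between 514 and 703 in the shRNA libraries. The fibroblast markers Lum and Fap were at most at 0.0876 CPM in all 8 libraries. In such bulk libraries, fewer cells of a type and less RNA per cell cannot be told apart.

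Among the members, the ligand gene and Etv5 had the highest levels in WT and in the ZHBTc4 controls. Per kb of exon, the level of Fgf4 (ENSMUSG00000050917, chr7:152047291-152051148) was 91.0 CPM per kb in WT and that of Etv5 (ENSMUSG00000013089, chr16:22381382-22439792) was 85.4 CPM per kb. They were followed by Spry2 (41.0 CPM per kb), Etv4 (30.6 CPM per kb), Dusp6 (21.1 CPM per kb), Spry4 (17.8 CPM per kb) and Fgfr1 (9.67 CPM per kb). Dusp4 (5.68 CPM per kb), Egr1 (2.63 CPM per kb) and Fgfr2 (2.47 CPM per kb) were lowest. In the 2 ZHBTc4 controls the order was the same except that Etv5, at a mean of 122 CPM per kb, was ahead of Fgf4, at 76.3 CPM per kb, and no error can be given for the order in the single WT library. Of neighbours in that order, Dusp6 and Spry4 overlapped between the 2 controls, and no other pair did. No other FGF ligand came near Fgf4: the next in WT was Fgf17, at 7.23 CPM per kb, and in the ZHBTc4 controls Fgf15, at a mean of 3.72 CPM per kb. Fgfr1 stood above Fgfr2 in every group, at 9.67 against 2.47 CPM per kb in WT and a mean of 11.97 against 1.11 CPM per kb in the ZHBTc4 controls. Of the other receptor genes in WT, Fgfr3 and Fgfr4 were at 1.13 and 1.28 CPM per kb, and the receptor-like gene Fgfrl1, at 3.54 CPM per kb, was above Fgfr2.

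**Figure D1:**
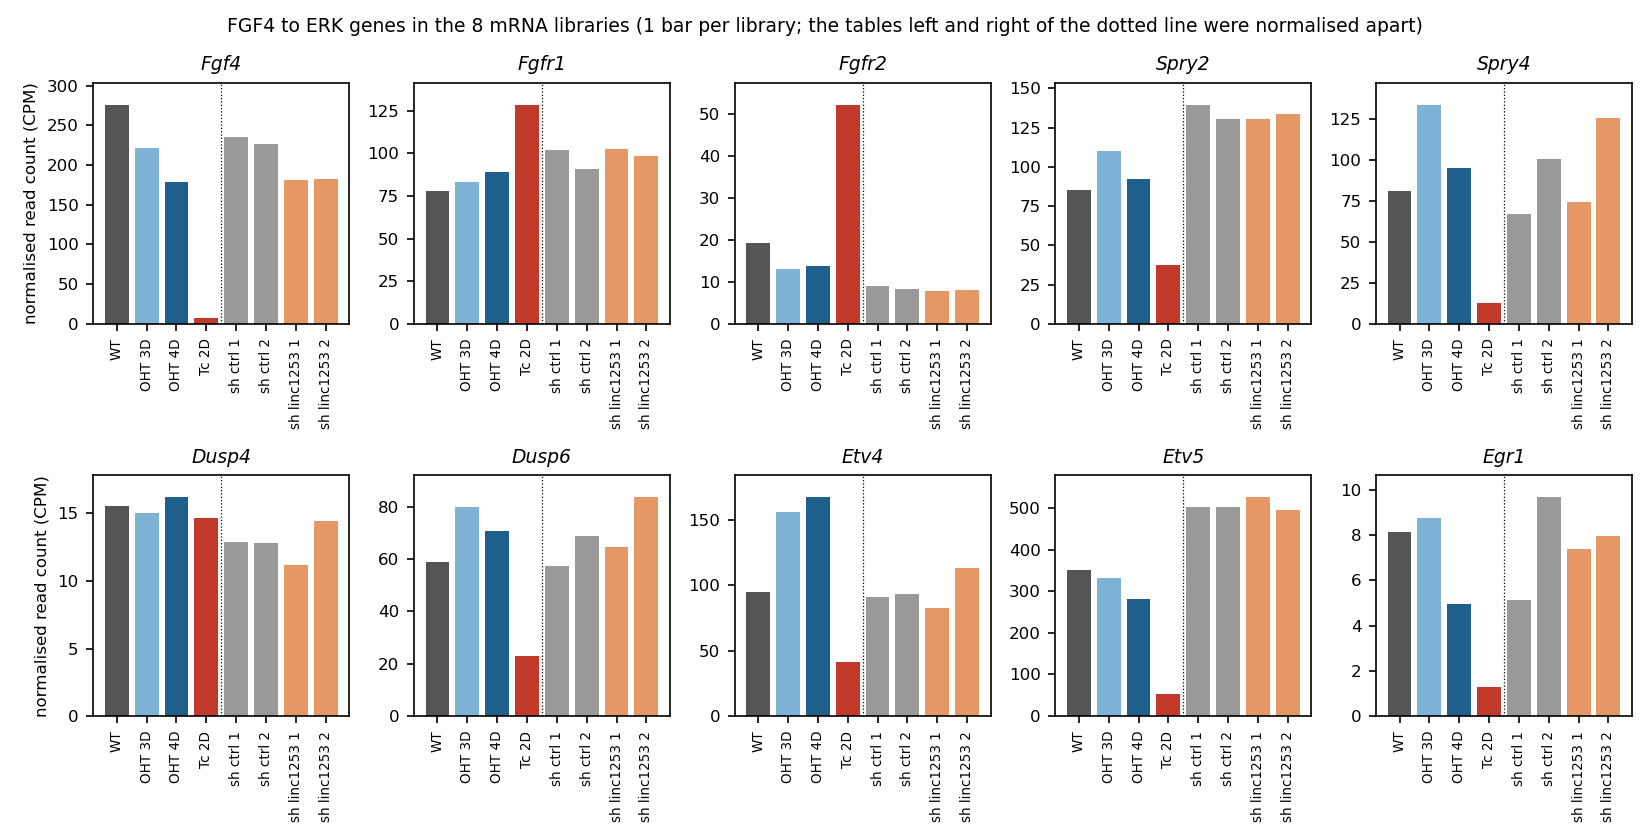
Normalised read count (CPM, from 0) of each member gene in each of the 8 mRNA libraries, 1 bar per library, with WT in dark grey, OHT in blue, Tc 2D in red, shRNA control in light grey and shRNA linc1253 in orange. At Tc 2D the bar of Fgf4 is at 7.08 against 276 in WT, and 6 other members are lower than WT by more than the threshold, while Fgfr1 and Fgfr2 are higher.

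Most members were lower and both receptor genes higher in the Oct4-depleted library. At Tc 2D, 7 of 10 members were below WT by a log2-fold-change of more than 0.58, the threshold used for single libraries, against 25.8% of 13449 genes tested. They were Fgf4, Spry2, Spry4, Dusp6, Etv4, Etv5 and Egr1. Fgfr1 and Fgfr2 were past the threshold upwards, against 23.9% of genes tested, and Dusp4 was within it. The median log2-fold-change of the members was -1.26, and that of all genes tested was -0.06. Log2-fold-changes are of CPM plus 1, and the intervals on them are 95% intervals that cover the counting of reads alone.

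Fgf4 measured 7.08 CPM at Tc 2D against 276 CPM in WT, from 201 and 6166 reads. The log2-fold-change was -5.10 (-5.28 to -4.92), a 34.2-fold lower value, and 0.0818% of genes tested were lower still. In the ZHBTc4 controls, which share the line of Tc 2D, Fgf4 had a CPM of 236 and 227, so Tc 2D was also far below both of these. The difference from them was a log2-fold-change of -4.84, or 28.7-fold, where the controls themselves differed by 0.06.

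The receptors stood on the other side. Fgfr2 (ENSMUSG00000030849, chr7:137305965-140315033) measured 52.3 CPM at Tc 2D against 19.3 CPM in WT, a log2-fold-change of 1.39 (1.25 to 1.54). Its ZHBTc4 controls were lower than WT, at 8.95 and 8.30, and the difference of Tc 2D from them was 2.47. The gene model of Fgfr2 includes a read-through transcript and shares 314 exon bases, 4.03% of its exons, with Ctbp2. How many of its reads lie on the shared bases was not measured, so its level is uncertain. Fgfr1 (ENSMUSG00000031565, chr8:26624126-26686186) measured 128 CPM at Tc 2D against 77.9 CPM in WT, a log2-fold-change of 0.71 (0.63 to 0.79). Against the ZHBTc4 controls, at a CPM of 102 and 90.9, the difference was 0.41, which is within the threshold, and it was 0.60 with all 8 libraries on one scale. In that setting 24.4% of genes were past the threshold upwards and 21.9% downwards, and as deposited 18.5% upwards. The call for Fgfr1 therefore depended on the control and the scaling, whereas that for Fgfr2 did not under the settings run.

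Of the feedback genes, the Sprouty genes and Dusp6 were lower and Dusp4 was not. Spry4 (ENSMUSG00000024427, chr18:38745922-38760922) measured 13.0 CPM at Tc 2D against 81.5 CPM in WT, a log2-fold-change of -2.55 (-2.71 to -2.40). Spry2 (ENSMUSG00000022114, chr14:106291166-106296036) measured 37.4 CPM at Tc 2D against 85.5 CPM in WT, a log2-fold-change of -1.17 (-1.28 to -1.07). Both were also below the 2 ZHBTc4 controls, by log2 differences of -2.57 for Spry4 and -1.83 for Spry2. Dusp6 (ENSMUSG00000019960, chr10:98725865-98730122), a phosphatase that acts on ERK in the cytoplasm, measured 22.8 CPM at Tc 2D against 59.0 CPM in WT. Its log2-fold-change was -1.33 (-1.47 to -1.20), and -1.42 against the ZHBTc4 controls. Dusp4 (ENSMUSG00000031530, chr8:35870351-35882948), a nuclear phosphatase of the same family, measured 14.7 CPM at Tc 2D against 15.6 CPM in WT. The interval on its log2-fold-change of -0.08 (-0.27 to 0.11) included 0. Against the ZHBTc4 controls the sign turned, with a difference of 0.18 as deposited and 0.35 on one scale, both within the threshold.

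The transcription factor genes were all lower. Etv5 measured 53.6 CPM at Tc 2D against 351 CPM in WT, a log2-fold-change of -2.69 (-2.77 to -2.61). Its ZHBTc4 controls were higher than WT, at 502 and 501, and the difference from them was -3.20. Etv4 (ENSMUSG00000017724, chr11:101631056-101646685) measured 41.5 CPM at Tc 2D against 94.95 CPM in WT, a log2-fold-change of -1.18 (-1.28 to -1.07), and -1.13 against the ZHBTc4 controls. Egr1 (ENSMUSG00000038418, chr18:35020861-35024638), an immediate early gene, was the least abundant by reads, with 182 reads in WT and 36 at Tc 2D. Its CPM of 8.14 and 1.27 gave a log2-fold-change of -2.01 (-2.33 to -1.69). The ZHBTc4 controls of Egr1 were at a CPM of 5.12 and 9.68, a log2 difference of 0.80 between replicates. All 7 members below WT were below the ZHBTc4 controls as well, by more than the threshold. Of genes tested, 28.5% were below those controls, whether or not they were below WT. Both comparisons use the same Tc 2D library. Between those 2 controls, 3.10% of 13407 genes differed by more than 0.58.

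**Figure D2:**
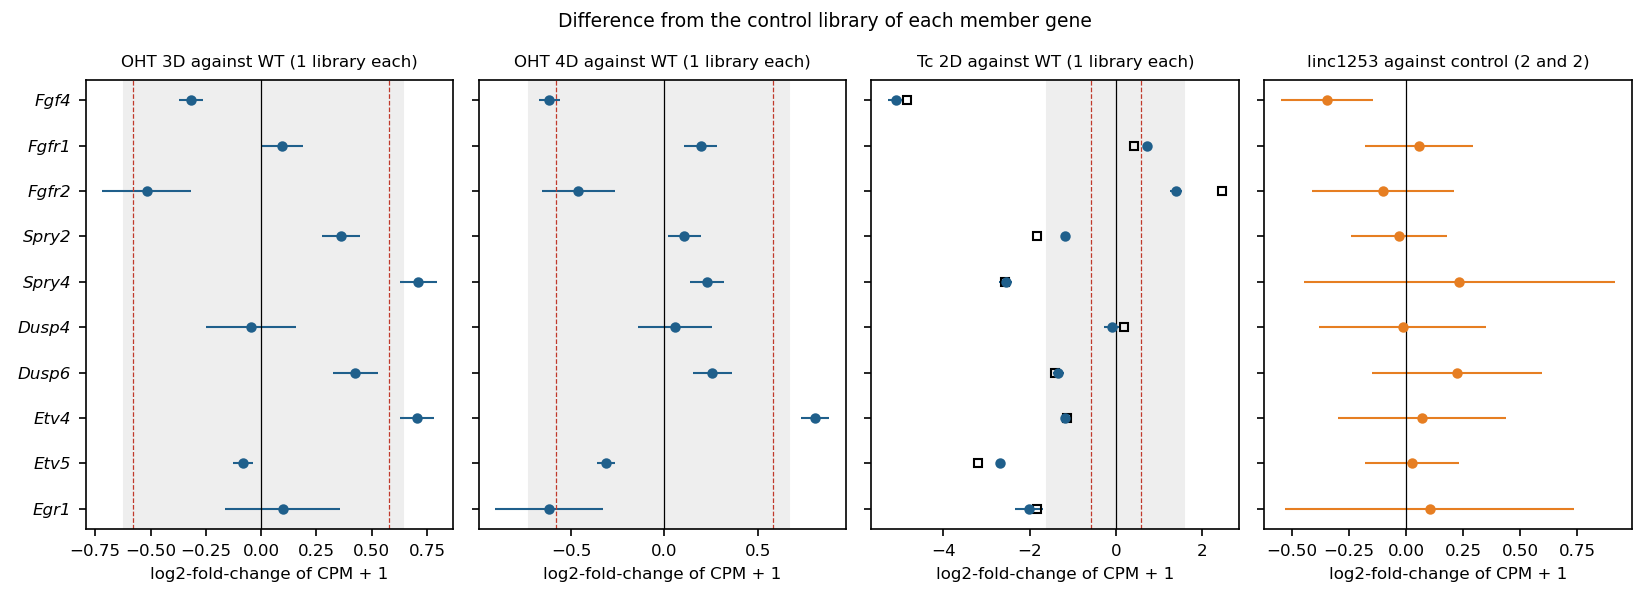
Log2-fold-change of CPM plus 1 of each member gene in the 4 comparisons, each with its own horizontal scale. Blue points are single libraries against WT with 95% intervals for counting error, squares are Tc 2D against the 2 ZHBTc4 controls, orange points are linc1253 against control with 95% intervals from limma, red dashed lines are the threshold of 0.58 in both directions, and grey bands hold the middle 90% of genes tested; at Tc 2D the points for Fgf4, Spry4, Etv5 and Egr1 lie left of the band.

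The other genes of the pathway were counted in the same way at Tc 2D. Of the other FGF ligands, 8 of 17 passed the filter, 5 were below WT and 1 was above, and the same held against the ZHBTc4 controls with the same genes in both. Fgf17 measured 0.0705 CPM at Tc 2D against 12.2 CPM in WT, from 2 and 273 reads, a ratio of 0.00578 (0.000696 to 0.0211). Fgf1, Fgf3, Fgf10 and Fgf15 were lower too, while Fgf7 was higher at a CPM of 1.34 against 0.0447. That WT value is what 1 read is worth in the WT library, so the size of the rise is uncertain. The ZHBTc4 controls of Fgf7 had a CPM of 0.231 and 0.387. Of the other receptors and coreceptors, 1 of 4 tested was below WT: Fgfr3, at a CPM of 3.35 against 7.78. The ZHBTc4 controls of Fgfr3 had a CPM of 3.92 and 3.40, within the threshold of Tc 2D. Of the heparan sulphate enzymes, 0 of 7 were past the threshold in either direction against WT, and 1 of 7, Ndst2, was above the ZHBTc4 controls, by 0.94.

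Among the adaptors and the RAS, RAF, MEK and ERK genes, 3 of 20 were above WT and 6 were below, with a median of -0.07. The RAS inhibitor gene Nf1 had a CPM of 98.3 at Tc 2D against 21.7 in WT, Frs2 had 119 against 49.9, and the exchange factor gene Sos2 had 32.7 against 12.6. Mapk3, which encodes ERK1, had 56.4 against 110 and Map2k1, which encodes MEK1, had 79.4 against 147. Frs3, a second FRS adaptor gene, had 4.86 against 12.7. Against both WT and the ZHBTc4 controls, the same 3 genes were above and 4 were below, Frs3 no longer among them at a log2 difference of -0.42.

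The other negative feedback genes split: 4 of 11 were above WT and 4 below. Errfi1, an inhibitor of EGF receptors, had a CPM of 125 at Tc 2D against 27.0 in WT. Dusp9, an ERK phosphatase, had 495 against 284, and Spred3 had 9.13 against 4.74. Lower were Dusp1 (19.3 against 62.4), Dusp5 (7.65 against 15.8) and Il17rd (25.6 against 44.0). Against the ZHBTc4 controls, Dusp1 and Dusp5 were within the threshold, at log2 differences of -0.38 and -0.19, and Spred3 was at -0.25. Errfi1, Dusp9 and Il17rd were past it against both. Of the other ERK-responsive transcription genes, 4 of 14 were above and 4 below. Ccnd1, the cyclin D1 gene, had a CPM of 10.4 at Tc 2D against 123 in WT, and Ier2 had 27.2 against 81.2. Ier3 had 3.56 against 6.75. Elk4, an ETS factor of the ternary complex, had 34.6 against 7.15, Jun had 28.8 against 18.7 and Ets2 had 32.7 against 21.1. Ets2 was lower than the ZHBTc4 controls by -0.45, so its direction turned with the control.

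The cells of Tc 2D carried other marker genes. Of pluripotency genes, 16 of 18 were below WT, with a median of -2.53, and 10 of 11 trophectoderm genes were above it, with a median of 2.69. Hand1 had a CPM of 61.8 against 0.268, Gata3 had 13.3 against 0.313 and Krt18 had 157 against 17.7. Of primitive endoderm genes, 6 of 12 were above WT and 1 was below. The part of these cells in the values of the members was not tested.

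**Figure D3:**
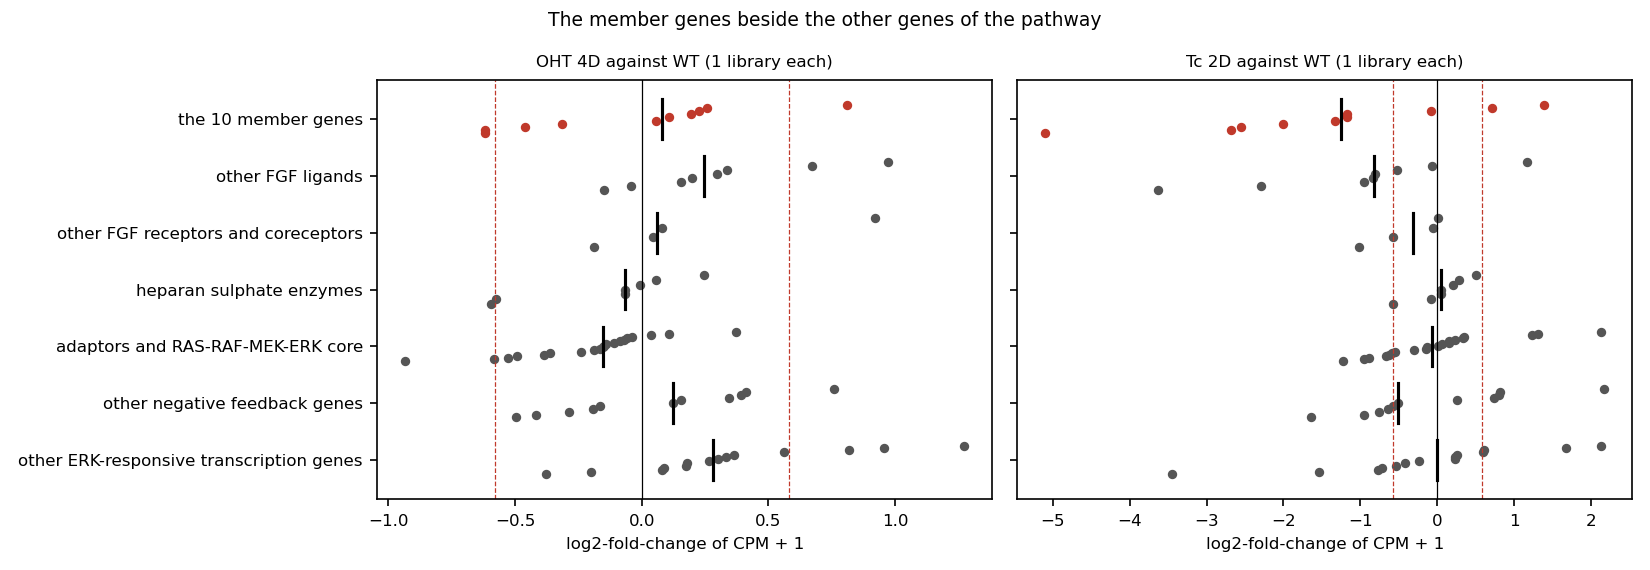
Log2-fold-change of CPM plus 1 against WT at OHT 4D and Tc 2D of the 10 member genes (red) and of the other pathway genes that passed the filter (grey), 1 point per gene, with the median of each list as a black line and the threshold of 0.58 as dashed lines. At Tc 2D the members have a median of -1.26, while the adaptors and RAS, RAF, MEK and ERK genes have a median of -0.07.

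After OHT, fewer members were past the threshold. At OHT 3D, 2 of 10 members were past the threshold upwards, Spry4 and Etv4, against 6.01% of genes tested, and 0 of 10 downwards, against 5.88%. At OHT 4D, Etv4 was past it upwards, against 6.48%, and Fgf4 and Egr1 downwards, against 8.89%. The median of the members was 0.10 at OHT 3D and 0.08 at OHT 4D, and that of all genes tested was -0.02 and -0.00.

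Fgf4 measured 221 CPM after 3 days and 179 CPM after 4 days of OHT, against 276 CPM in WT. The log2-fold-change was -0.32 (-0.37 to -0.26) at OHT 3D and -0.62 (-0.68 to -0.56) at OHT 4D, the latter close to the threshold. OHT 4D was below OHT 3D by -0.30 (-0.36 to -0.24), so both steps were larger than counting error. The receptors did not pass the threshold. Fgfr1 had a CPM of 83.3 at OHT 3D and of 89.2 at OHT 4D, and log2-fold-changes of 0.10 and 0.19. Fgfr2 had 13.2 and 13.7, with log2-fold-changes of -0.52 (-0.72 to -0.32) and -0.46 (-0.66 to -0.26), both below WT beyond counting error and short of the threshold.

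Etv4 was higher than WT at both times, at a CPM of 155 at OHT 3D and of 167 at OHT 4D against 94.95 in WT. The log2-fold-changes were 0.71 (0.63 to 0.78) and 0.81 (0.73 to 0.89), the highest of the members at OHT 4D. Spry4 had a CPM of 134 at OHT 3D and of 95.6 at OHT 4D against 81.5 in WT, so that its log2-fold-change was 0.71 (0.63 to 0.79) at the earlier time and 0.23 (0.14 to 0.32) at OHT 4D. Between the 2 ZHBTc4 controls Spry4 differed by 0.58, which is as large as the threshold. Dusp6 was at a CPM of 79.6 and 70.7 against 59.0, with log2-fold-changes of 0.43 and 0.26, and Spry2 at 110 and 92.1 against 85.5, with 0.36 and 0.11. Etv5, the most abundant member by reads, was lower, at 331 and 282 against 351, with log2-fold-changes of -0.08 and -0.31. Dusp4, at 15.0 and 16.2 against 15.6, had intervals that included 0 at both times.

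Egr1 had a CPM of 8.78 at OHT 3D and of 4.95 at OHT 4D against 8.14 in WT. The log2-fold-change was 0.10 (-0.16 to 0.36) first and then -0.62 (-0.91 to -0.33) at OHT 4D, from 113 reads. The difference of 0.80 between the ZHBTc4 controls for this gene was larger than that.

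Among other pathway genes, few were past the threshold after OHT. At OHT 3D, Mapk3 was at a CPM of 66.5 against 110 in WT, with a log2-fold-change of -0.72, and it was at -0.24 at OHT 4D. Fgfrl1, a receptor-like gene without a kinase domain, was at 5.70 against 9.39 at OHT 3D. At OHT 4D, Braf was at 34.8 against 67.4 with a log2-fold-change of -0.93, Frs2 at 33.0 against 49.9 and Ndst1, a sulphotransferase of heparan sulphate, at 26.3 against 40.2. Dusp5 was at 27.4 against 15.8 at OHT 4D. Of the other ERK-responsive transcription genes, 4 of 14 were above WT at OHT 3D and 3 of 14 at OHT 4D, and 0 were below at either time. Myc was at a CPM of 56.6 at OHT 3D and of 39.4 at OHT 4D against 19.8. Phlda1 was at 11.7 and 15.5 against 5.81, Etv1 at 18.01 at OHT 3D against 9.57, and Junb at 32.7 at OHT 4D against 18.1.

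Most fibroblast markers were higher than WT at both OHT times, and the median over the 26 tested was 2.19 (log2) on day 3 and 1.77 on day 4, while their summed CPM was higher on day 4. Acta2 was at a CPM of 94.6 and 112 after OHT against 5.90 in WT, Cd44 at 25.7 and 24.0 against 1.03, Col1a1 at 46.5 and 64.6 against 4.20, and Lox at 20.6 at OHT 3D against 0.939. Trophectoderm genes were also higher, 6 of 11 at OHT 3D and 8 of 11 at OHT 4D, as were primitive endoderm genes, 5 of 12 and 9 of 12. On day 3, 1 gene of each list was below WT, and on day 4 this held for 0 of each. The trophectoderm gene was Eomes, with a CPM of 4.39 on day 3 against 7.55 in WT, a log2-fold-change of -0.67. Of pluripotency genes, 0 of 18 were above and 1 below at OHT 3D, and 1 was above and 0 below at OHT 4D. Their part in the values of Etv4, Spry4, Myc and the other genes was not tested.

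After knockdown of linc1253, 0 of 10 members passed the test in limma without a replicate block, the fit used here. limma was fitted over 13407 genes, and 0 genes had an adjusted p under 0.05, 0% of genes in either direction. At an unadjusted p under 0.05 there were 999 genes, of which 1 was a member, Fgf4. The edgeR quasi-likelihood test likewise gave 0 genes at an adjusted p under 0.05 and 1010 at an unadjusted p under 0.05, and DESeq2 gave 23 genes up and 27 down, 0 of them members. Stouffer's combination of edgeR's exact test with a ratio test, the kind of test the study used, called 285 genes up and 289 down, of which 1 was a member, Fgf4, at an adjusted p of 0.0238. The study took an unadjusted p and a fold limit instead, and with an unadjusted p under 0.05 and 1.3-fold that test called 444 genes up and 394 down, 0 of them members. Nothing in the labels says whether the 2 libraries of a group came from separate cultures, so the p-values measure the spread between these libraries. A limma block for same-numbered libraries, a pairing the labels do not give, called 3 members, Fgf4, Spry4 and Dusp6. Its values and limits are in the closing section.

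Fgf4 had a CPM of 236 and 227 in the controls and 181 and 182 in the linc1253 libraries. Both linc1253 libraries were below both controls, which held for 2 of 10 members, Fgf4 and Fgfr2, and for 19.2% of genes tested. 0 of 10 members had both above both controls, against 18.8% of genes. The mean was 231 ± 6.53 in the controls and 181 ± 1.21 after knockdown (SD, n = 2 each). The log2-fold-change was -0.35 (SE 0.083), with an adjusted p of 0.55 in limma. Fgf4 was therefore at 78.5% of the control mean, and the difference was short of 1.3-fold. A difference past 1.3-fold with limma's unadjusted p under 0.05 was met by 2.14% of genes downwards and 2.26% upwards, and by 0 of 10 members in either direction.

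Spry4 and Dusp6 showed how far replicates differed. Spry4 had a CPM of 66.9 and 101 in the controls and 74.4 and 126 in the linc1253 libraries, so the second library was the higher one in both groups. The linc1253 libraries differed from each other by 0.75 on the log2 scale, and 2.60% of genes differed by more than 0.58 there. The log2-fold-change was 0.23 (95% interval -0.45 to 0.92). Dusp6 had 57.3 and 68.7 in the controls and 64.5 and 83.6 after knockdown, and the groups overlapped, with a log2-fold-change of 0.22 (-0.15 to 0.60). Egr1 had 5.12 and 9.68 in the controls and 7.40 and 7.98 after knockdown. Etv4 had 91.2 and 93.2 in the controls and 82.8 and 113 after knockdown. Their log2-fold-changes were 0.10 (-0.53 to 0.74) for Egr1 and 0.07 (-0.30 to 0.44) for Etv4. The 30 fibroblast markers summed to 525 and 514 CPM in the controls and 591 and 703 CPM after knockdown. Single markers differed in direction between the first and second libraries. Acta2 had a CPM of 0.277 and 3.31 in the controls and 0.180 and 17.7 after knockdown. Thy1 had 33.5 and 27.4 in the controls and 33.6 and 26.9 after knockdown. The part of the fibroblast markers in the values of Spry4 and Dusp6 was not tested.

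The other members had intervals that included 0. Etv5 had a CPM of 502 and 501 in the controls and 526 and 496 after knockdown, and Spry2 had 139 and 131 against 131 and 134. The 95% intervals on their log2-fold-changes were -0.18 to 0.23 for Etv5 and -0.24 to 0.18 for Spry2. Fgfr1 had 102 and 90.9 against 102 and 98.2, with an interval of -0.18 to 0.30, and Fgfr2 had 8.95 and 8.30 against 7.94 and 7.98, with an interval of -0.41 to 0.21. Dusp4 had 12.9 and 12.8 against 11.2 and 14.4, with an interval of -0.38 to 0.35. Of the other pathway genes, 0 passed the adjusted test. Those at an unadjusted p under 0.05 in limma were the ligands Fgf1 and Fgf17 and Myc, which were higher, and Mapk3 and Ier3, which were lower. That limit was met by 999 of 13407 genes tested.

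Pontin ChIP-seq covered the members' promoters thinly. From 2.5 kb before to 500 bases after the start site, the members held 69 to 150 Pontin reads and 13 to 35 GFP reads, out of 40729076 and 17185883 in the libraries. The median log2 ratio of Pontin over GFP, scaled by library size, was 0.73 over the 10 members and 0.34 over 21178 protein-coding promoters. It was 0.46 over promoters within 5 percentage points of the members' median GC content, which was 55.9% against 48.1% over all. Over all promoters the ratio and GC content had a Pearson correlation of 0.238, as a description, and the part of GC content in the members' median was not tested.

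Spry2 had 98 Pontin and 13 GFP reads, and a log2 ratio of 1.67 (exact 95% interval 0.83 to 2.63). Its GFP reads were the fewest of the members, against a median of 24 over all promoters. Its Pontin reads, against a median of 72, were close to those of Fgfr1 (95) and Spry4 (94). Egr1 had 150 and 24 reads, and a log2 ratio of 1.40 (0.77 to 2.09). These 2 of 10 members were above a log2 ratio of 1, as were 14.8% of promoters. Spry4 (0.92), Etv4 (0.90), Dusp4 (0.77), Fgfr1 (0.68) and Dusp6 (0.49) were above the median of all promoters, and the intervals on each reached below it. Dusp6 (0.49, -0.14 to 1.17), Etv5 (0.28, -0.41 to 1.01) and Fgf4 (0.23, -0.42 to 0.92) could not be told from a ratio of 0 at this depth. With 1 read kept per position and strand, the ratio was 0.98 for Dusp6, 0.12 for Etv5 and 0.04 for Fgf4. No interval was computed in that setting. Within 1 kb either side of the start, the ratio was 1.98 for Etv5, 1.77 for Egr1, 0.94 for Spry2, 0.04 for Dusp4 and -0.04 for Dusp6. The order of the members and the call of Spry2 above 1 thus depended on the window. Across that window at Etv5, consecutive equal bins held 17, 14, 14 and 11 Pontin reads and 2, 3, 0 and 1 GFP reads. No interval was computed within 1 kb, and the Etv5 value rests on few GFP reads.

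Fgfr2 had the lowest ratio, -0.24 (-0.85 to 0.38), at the start that RefSeq gives. Around the match in the Fgf4 3′ UTR printed above, the 500 bases either side held 21 Pontin and 12 GFP reads, a log2 ratio of -0.44 (-1.53 to 0.72), so no excess of Pontin was detectable there at this depth.

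**Figure D4:**
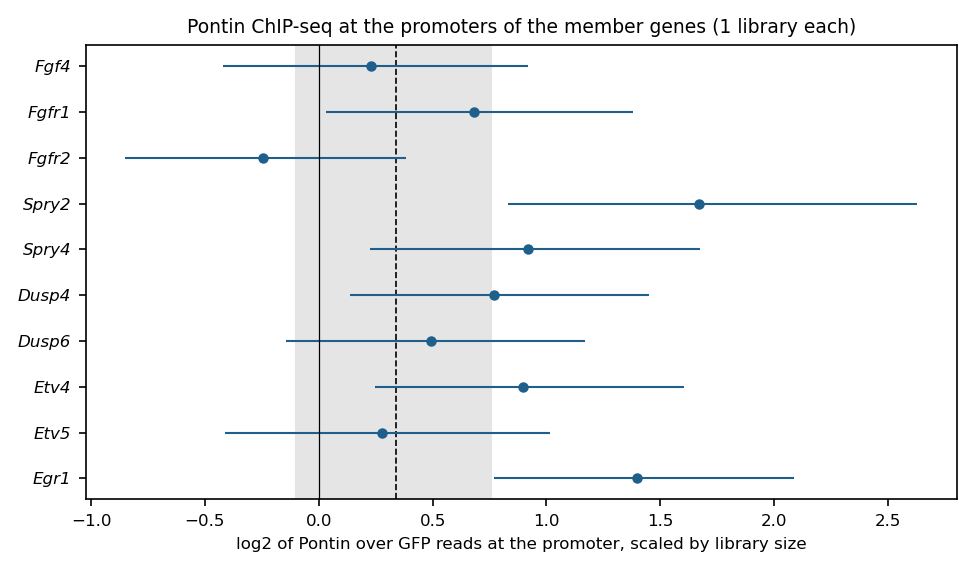
Log2 of Pontin over GFP reads, scaled by library size, at the promoter of each member gene (points, 1 library each) with exact 95% intervals for counting error. The grey band spans the middle quartiles of all protein-coding promoters and the dashed line is their median of 0.34; Spry2 at 1.67 and Egr1 at 1.40 have intervals that lie right of that median.

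The genes whose log2-fold-changes lay nearest to those of Fgf4 over OHT 3D, OHT 4D, Tc 2D and linc1253 were Gpa33, 1700019D03Rik, Pdzd4, Calca and Nod1, at Euclidean distances of 0.42 to 0.72. The median distance to Fgf4 over the 9957 genes compared was 5.03. The values entered unscaled, and that of Fgf4 at Tc 2D, -5.10, was by far its largest, so this median mostly reflects Tc 2D. Gpa33, the nearest, had log2-fold-changes of -0.30, -0.40, -5.22 and -0.02 in that order, where Fgf4 had -0.32, -0.62, -5.10 and -0.35. Those nearest to Dusp6 were D10Wsu102e, Bzw1, Hexim1, Sirt1 and Ptk7, at distances of 0.13 to 0.16, where the median was 1.48. The differences at OHT 3D, OHT 4D and Tc 2D share the WT library. None of the other members was among the 5 nearest to either gene.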

How the data were processed

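mRNA-seq gave 8 libraries and ChIP-seq gave 2. Per the labels and the paper's methods, the authors aligned reads to NCBIM37 with TopHat for mRNA and Bowtie2 for ChIP, counted mRNA reads on genes with HTSeq, normalised these by TMM in edgeR and deposited CPM, in separate tables for the first 4 libraries and the 4 shRNA libraries. Dividing each library's CPM by its smallest step gave whole reads, to within 0.01 read, for 100% of values. The deposited ChIP files hold 1 line per aligned read, with a mapping quality score. Symbols were matched for 22337 of 22713 IDs. The symbol Fgfr1 paired with 2 IDs, of which the one with reads was used.

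Genes above a CPM of 1 in at least 1 of the 4 libraries of a table were kept. Single libraries were compared on log2 of CPM plus 1 with no test. The linc1253 groups were compared with limma 3.58.1 with trend (two-sided, Benjamini-Hochberg). The recovered reads went into edgeR 4.0.16 and DESeq2 1.42.0 as alternatives. R 4.3.3, Python 3.11.15, pandas 2.3.3 and scipy 1.17.1 were used, and the scripts were tested on simulated data. Intervals hold counting error alone, as PCR copies were not marked by molecular identifiers. ChIP ratios used the gene's annotated start, save for Fgfr2, where the RefSeq start matched to NCBIM37 was used. The annotated and RefSeq starts are the same for Fgf4, Spry2 and Dusp6. For Etv5, the RefSeq start of the printed promoter lies 149 bases downstream of the annotated start. Whether counting used strand is not given in the sources used here. Fgfr1 and Egr1 share 125 and 8 exon bases with antisense genes. Fgfr1 also shares 761 exon bases, 9.44% of its exons, with its second ID on the same strand. Reads on these bases were not measured, so its level is uncertain too.

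The members and the gene lists were chosen with earlier results of these data known. All members were named in each comparison. Of the other lists, at most the 3 largest rises and 3 largest falls past the threshold and averaging 5 CPM or more were named. A few other genes were named after their values were seen (Fgf1, Fgf3, Fgf7, Fgf10, Fgf15, Fgfr4, Ndst2, Lum, Fap, Col1a1 at OHT 3D, Mapk3 at OHT 4D, and Acta2 and Thy1 in the shRNA libraries). Nearest genes to Fgf4 and Dusp6 were the 5 at the smallest Euclidean distance over genes that averaged 5 CPM or more in both tables. Listed symbols that were not matched (Hras, Spry3, Tfap2a, Tfap2c and Tfcp2l1) are not analysed here.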

Additional observations from a re-analysis of the deposited data

Results flagged for a closer look

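Egr1 and Dusp4 had log2-fold-changes of opposite sign at OHT 3D and OHT 4D. Egr1 was at 0.10 and -0.62, a difference between the times of -0.72 (interval -1.003 to -0.43, counting error only), and Dusp4 was at -0.05 and 0.06, a difference of 0.10 (-0.10 to 0.30). With 1 library per time the difference was not tested.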

How the results depend on the processing

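For the counts of members and the ChIP median, 78 alternative values stayed close to the reported ones and 12 did not. Close let the ChIP median move by as much as the typical counting error of a member. It was 0.73 as reported and 0.38 when scaled by the median promoter ratio, which shifts all promoters alike. Other filters on low values could not change the counts at OHT and Tc 2D, because all members pass them. A threshold of 1 left 0 members rising at OHT 3D, 0 rising and 0 falling at OHT 4D and 1 rising at Tc 2D (Fgfr2), and 7 still fell at Tc 2D. A pseudocount of 3 left 1 member falling at OHT 4D (Fgf4). Against the ZHBTc4 controls as deposited, or either one alone (chosen after seeing the data), 1 member rose at Tc 2D. On one median-ratio scale, which moved the median of all genes from -0.14 to 0.03, it was 2. For linc1253, Stouffer's combination of edgeR's exact test with a ratio test called 285 genes up and 289 down. It called 1 member, Fgf4, at an adjusted p of 0.024. Over the fits with 2 libraries per group, the adjusted p of Fgf4 was lowest in limma's replicate block, at 0.000236. It was highest in the edgeR quasi-likelihood test, at 0.568. The replicate block in limma called 933 genes up and 1027 down, with 3 members, Fgf4, Spry4 and Dusp6, at adjusted p-values of 0.000236, 0.0111 and 0.0148. The numbers pair no labelled cultures, though the deviations of same-numbered libraries correlated at 0.673 over 13407 genes, and 2 pairs cannot settle it. Leaving out each library left 1 library in a group, so its counts of members past a p-value are not given. The log2-fold-changes ran from -0.024 to 0.14 for Fgfr1, -0.077 to 0.017 for Spry2, -0.14 to 0.61 for Spry4 and -0.18 to 0.16 for Dusp4. They ran from -0.15 to 0.29 for Etv4, -0.015 to 0.068 for Etv5 and -0.30 to 0.50 for Egr1. Each of these members turned sign. Fgf4 stayed between -0.38 and -0.32, and Dusp6 ran from 0.04 without linc1253 2 to 0.41 without linc1253 1. The cause was not tested. The Pontin ratio of Etv5 was 1.98 within 1 kb of the start, from few GFP reads and without an interval. That of Fgfr2 was 0.64 at its annotated gene end. The depth at the promoters limits the ChIP ratios to the intervals given.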
